A study of Mus musculus with 9 samples.

Results

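The genes described here are 10 muscle genes measured in fetal thymic lobes of the mouse: Myh3, Acta1, Mylpf, Myog, Des and Chrna1, which mark skeletal muscle or its formation, and Myl7, Myh6, Nppa and Tnnt2, which are used by the atria or the whole of the embryonic heart. They are 10 of the 19572 transcript clusters that carry a gene symbol, out of 22206 clusters measured, and each symbol had 1 cluster. The genes were chosen from the values described below, because they were high on single arrays, so which arrays are high is a description and carries no test.

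The series measured total RNA of embryonic thymic lobes from C57BL/6 mice at e13.5 on Clariom S whole-transcript arrays, which read each gene through many short probes. The study set out to compare thymic transcripts of mice that carry 2 different mutant Foxn1 alleles with those of other mice. There were 3 arrays of each genotype: wild type, given as wt in the labels, the compound heterozygote Foxn1933/1089, and Tbx1neo2/neo2, with the neo2 allele of Tbx1 on both copies. The labels name no treatment, and they do not say whether the arrays of a genotype came from separate embryos, litters or pools of lobes, so the spread between arrays may be partly technical. No Cre driver or transgene is named. Array numbers within a genotype are names only. All values are the deposited log2 values, on which a step of 1 is a doubling, and the median of the negative-control features was 4.27 to 4.94 on the 9 arrays, which is the level taken as background.

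Skeletal muscle forms when myoblasts switch on the myogenic transcription factors, of which MYOG drives the late step in which myoblasts leave the cell cycle, fuse and assemble sarcomeres. The sarcomere is built from thin filaments of actin, regulated by troponin, and thick filaments of myosin, and embryonic muscle uses its own isoforms of these proteins. The heart is built from related sarcomere genes: Myl7 and Myh6 are strong in the atria, Nppa encodes a hormone secreted by atrial myocytes, and Tnnt2, the cardiac troponin T, is also made for a time by embryonic skeletal muscle. The thymus lies next to both tissues in the embryo, above the heart and beneath the muscles of the throat, and the mature thymus holds rare myoid cells that express skeletal muscle genes.

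The sequences just upstream of the start site are shown for 4 genes that stand for the groups: Chrna1 and Acta1 for skeletal muscle, Tnnt2 for the gene used by both tissues, and Myl7 for the atrium. Each line holds the 250 bases before the RefSeq start site, 5′ to 3′ on the gene's strand, in GRCm38.p6 coordinates. Chrna1 is at chr2:73580339-73580588 on the minus strand, Acta1 at chr8:123894776-123895025 on the minus strand, Tnnt2 (the first of its 2 starts) at chr1:135836084-135836333 on the plus strand and Myl7 at chr11:5898783-5899032 on the minus strand. Capitals mark CAGCTG, a form of the E box that myogenic factors bind, CATTCC, the core of the M-CAT element, and the CArG box, which serum response factor binds, searched on both strands.
Chrna1: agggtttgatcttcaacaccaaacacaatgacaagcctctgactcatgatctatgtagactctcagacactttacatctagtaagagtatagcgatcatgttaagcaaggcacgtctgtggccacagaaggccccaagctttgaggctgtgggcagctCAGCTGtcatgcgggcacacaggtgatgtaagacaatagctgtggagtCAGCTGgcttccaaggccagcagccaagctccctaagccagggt
Acta1: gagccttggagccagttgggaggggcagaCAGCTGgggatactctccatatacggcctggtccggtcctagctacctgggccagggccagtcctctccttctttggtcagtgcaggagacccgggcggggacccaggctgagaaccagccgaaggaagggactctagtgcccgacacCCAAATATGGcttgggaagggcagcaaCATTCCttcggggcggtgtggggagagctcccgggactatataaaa
Tnnt2: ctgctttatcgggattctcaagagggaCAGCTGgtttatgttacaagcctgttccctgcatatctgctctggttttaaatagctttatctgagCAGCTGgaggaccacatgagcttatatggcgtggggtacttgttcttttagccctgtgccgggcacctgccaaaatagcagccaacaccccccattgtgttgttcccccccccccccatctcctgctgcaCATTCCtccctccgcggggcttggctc
Myl7: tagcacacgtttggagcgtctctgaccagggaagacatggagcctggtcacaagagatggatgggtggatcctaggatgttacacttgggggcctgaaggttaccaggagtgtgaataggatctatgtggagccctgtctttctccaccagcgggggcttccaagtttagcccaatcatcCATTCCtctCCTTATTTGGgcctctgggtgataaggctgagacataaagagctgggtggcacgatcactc

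All 10 genes had a RefSeq promoter window. CAGCTG, which is 1 form of the general E box CANNTG and so overlaps it, was present in the 250 bases of 4 of the 6 skeletal genes (Acta1, Mylpf, Des and Chrna1) and 2 of the 4 atrial genes (Nppa and Tnnt2), against 13.001% of all 32851 windows. The general form CANNTG was in all 10 and in 66.2% of windows. CATTCC was in 3 of the 4 atrial genes (Myl7, Myh6 and Tnnt2) and 1 of the 6 skeletal genes (Acta1), against 12.6% of windows. A CArG box was found upstream of Acta1 and Myl7, 73 and 61 bases before the start, and in 1.47% of windows. A match shows only that the letters are there.

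The arrays differed in their thymic genes. Prss16, made by epithelial cells of the thymic cortex, read 4.24 on wild type array 1 and 4.45 on Foxn1 mutant array 2, and 13.87 to 14.43 on the other 7. Ptprc, the leukocyte marker CD45, read 6.44 and 5.87 on those 2 arrays and 10.26 to 12.36 elsewhere. Of 10 thymic epithelial genes 8, Prss16 included, were lower on both arrays than on each of the other 7, as were all 6 leukocyte genes. Of all clusters, 19.9% had their lowest value on wild type array 1 and 11.9% on Foxn1 mutant array 2. The share of clusters lower on both was not computed, and these single-array shares do not stand in for it. The 2 arrays are named here by their low Prss16, so its place in the count follows from that choice. The gaps of the epithelial genes were uneven. Foxn1 itself was 7.78 and 8.73 against 8.88 to 10.35, and Trp63, a factor of stratified epithelia, 11.55 and 12.82 against 12.90 to 13.40. The epithelial adhesion gene Epcam, at 8.33 and 8.82, lay within the 7.97 to 8.83 of the others. Part of the markers of the labelled tissue was thus at or near background on these 2 arrays, and group differences, correlations and spreads are given with and without the arrays they rest on. Wild type array 1 also had high neuronal genes, with Th, the first enzyme of catecholamine synthesis, at 12.44 against 2.56 to 4.07 elsewhere. Wild type array 2, on which the skeletal genes were highest, had Prss16 at 14.43 and Ptprc at 11.87, and so was not low in thymic genes. In bulk RNA, fewer cells of a type and less RNA per cell cannot be told apart.

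Myog, the myogenic regulator, stood at 8.52, 11.45 and 7.30 in wild type lobes, 8.96, 7.72 and 4.82 in Foxn1 mutant lobes and 7.85, 9.23 and 9.48 in Tbx1 mutant lobes. It was above background on all 9 arrays, highest on wild type array 2 and lowest on Foxn1 mutant array 3, and the 3 genotypes overlapped. Chrna1, the alpha subunit of the muscle acetylcholine receptor, gave 4.21, 6.69 and 4.20 for wild type, 4.50, 4.55 and 3.65 for the Foxn1 mutant and 3.67, 4.29 and 4.73 for the Tbx1 mutant. It exceeded the background median on 3 arrays and by more than 1 on wild type array 2 alone, so its other values have no reliable order.

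Myh3, the embryonic myosin heavy chain, had the widest range of the 10 genes. Its values were 8.12, 13.99 and 6.48 in wild type lobes, 9.47, 9.94 and 5.08 in Foxn1 mutant lobes and 7.24, 8.31 and 8.95 in Tbx1 mutant lobes. The wild type arrays held the highest and the next to lowest of the 9 values, and Foxn1 mutant array 3 the lowest. Acta1, skeletal muscle actin, stood at 6.06, 9.74 and 5.57 in wild type lobes, 5.58, 6.35 and 4.51 in Foxn1 mutant lobes and 5.28, 6.00 and 5.63 in Tbx1 mutant lobes. Mylpf, the regulatory light chain of fast skeletal myosin, gave 6.05, 8.98 and 6.42 for wild type, 6.51, 6.12 and 5.35 for the Foxn1 mutant and 5.41, 5.82 and 6.52 for the Tbx1 mutant. Wild type array 2 stood above the next array by 3.39 for Acta1 and by 2.45 for Mylpf. Probes of near-identical family members, such as the muscle actins and the myosin heavy chains, may share signal, and this was not tested.

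Des encodes desmin, the intermediate filament of all muscle types. It had wild type values of 7.50, 8.71 and 5.29, Foxn1 mutant values of 6.36, 7.15 and 5.10 and Tbx1 mutant values of 4.64, 5.83 and 6.84. Des was again highest on wild type array 2, but by only 1.21 over the next array, and it was the 1 skeletal gene whose lowest value was on Tbx1 mutant array 1 and not on Foxn1 mutant array 3. Its next highest arrays were wild type array 1 and Foxn1 mutant array 2, the 2 arrays low in Prss16.

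Tnnt2, troponin T of the heart and of embryonic skeletal muscle, had 2 high arrays. It stood at 5.15, 9.25 and 4.51 in wild type lobes, 6.61, 8.78 and 4.34 in Foxn1 mutant lobes and 4.97, 6.11 and 6.68 in Tbx1 mutant lobes. Wild type array 2 and Foxn1 mutant array 2 stood 0.47 apart and more than 2 log2 units above the other 7.

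Myl7, the atrial regulatory myosin light chain, gave 4.19, 4.66 and 4.04 for wild type, 4.51, 10.71 and 5.15 for the Foxn1 mutant and 5.36, 3.55 and 6.53 for the Tbx1 mutant. Foxn1 mutant array 2 stood 4.18 above Tbx1 mutant array 3, the other array more than 1 above background. Nppa, the atrial natriuretic peptide, had wild type values of 2.79, 2.96 and 3.06, Foxn1 mutant values of 3.11, 7.55 and 3.37 and Tbx1 mutant values of 2.80, 3.05 and 3.14. Myh6, the alpha myosin heavy chain of the atria, stood at 4.00, 3.59 and 3.34 in wild type lobes, 3.32, 5.96 and 3.29 in Foxn1 mutant lobes and 3.51, 3.97 and 3.17 in Tbx1 mutant lobes. Nppa and Myh6 were above background on Foxn1 mutant array 2 alone.

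**Figure D1:**
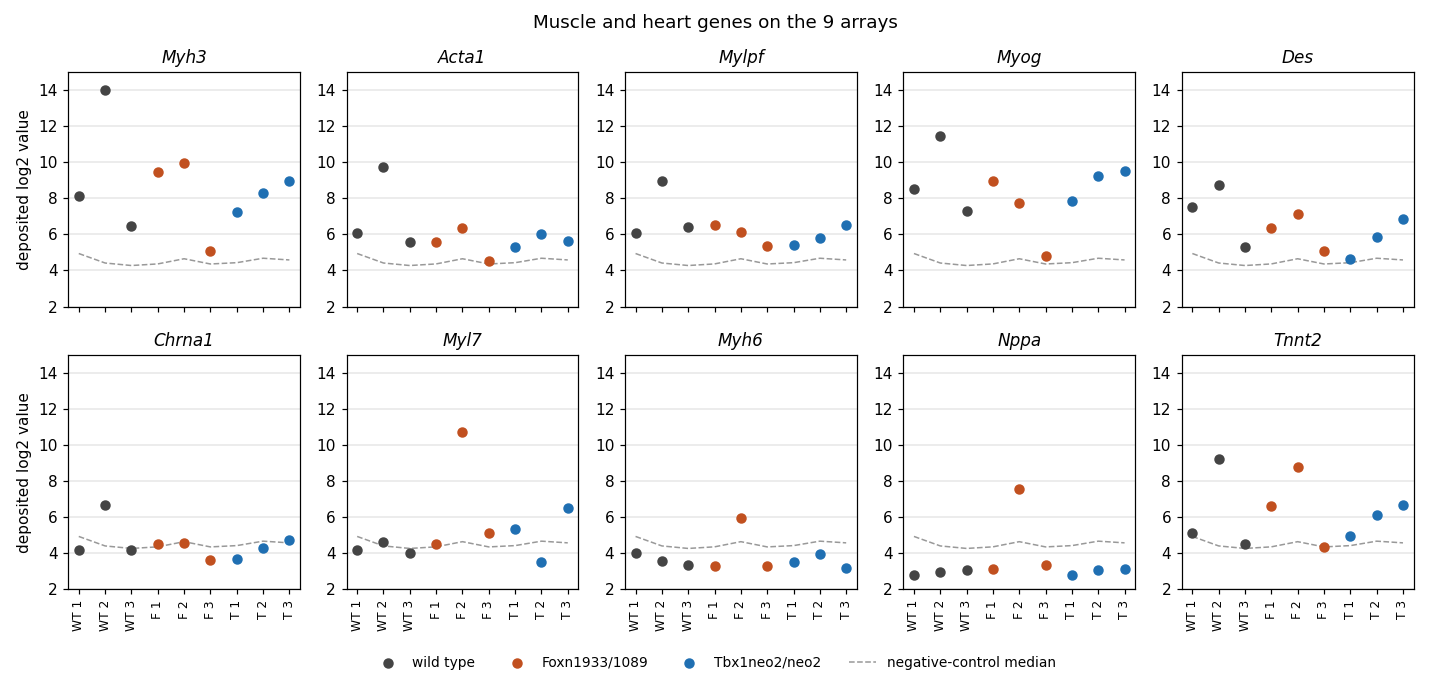
The 10 genes on each array. Each panel is 1 gene, the vertical axis is the deposited log2 value, each point is 1 array, coloured by genotype, and the dashed grey line joins the medians of each array's negative controls. Wild type array 2 is the highest point of all 6 skeletal panels and of Tnnt2, and Foxn1 mutant array 2 is the highest for Myl7, Myh6 and Nppa.

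Set against the other 2 arrays of its own genotype, wild type array 2 was 6.69 log2 units higher for Myh3, which is 103-fold, 3.92 higher for Acta1 (15.2-fold), 3.54 for Myog (11.6-fold), 2.74 for Mylpf (6.69-fold) and 2.32 for Des (4.99-fold). Chrna1 was at least 4.25-fold higher, with the other 2 arrays raised to their background medians. Tnnt2 was 4.42 higher on the same array, or 21.4-fold. On the log2 scale these gaps describe 1 array against 2 and have no replicate.

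Foxn1 mutant array 2 exceeded the other 2 arrays of its genotype by 5.88 log2 units for Myl7, or 59.0-fold. With background medians in place of lower values, it was at least 9.11-fold higher for Nppa, at least 3.02-fold for Myh6 and at least 9.81-fold for Tnnt2. The skeletal genes differed there by 2.66 for Myh3 (6.34-fold, beside the 3.02-fold bound of Myh6), 1.42 for Des, 1.30 for Acta1, 0.83 for Myog and 0.19 for Mylpf, while Chrna1 was under background. The array with the highest atrial genes was thus also the highest of its own genotype for Myh3, Acta1 and Des. For Myog, at 7.72, and Mylpf, at 6.12, it was below Foxn1 mutant array 1, at 8.96 and 6.51.

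The mean of the 6 skeletal genes was 6.74, 9.93 and 5.88 in wild type lobes, 6.90, 6.97 and 4.75 in Foxn1 mutant lobes and 5.68, 6.58 and 7.03 in Tbx1 mutant lobes. It ran from 4.75 to 9.93 over all 9 arrays and from 4.75 to 7.03 without wild type array 2. The mean of the 4 atrial genes was 4.04, 5.11 and 3.74 in wild type lobes, 4.39, 8.25 and 4.04 in Foxn1 mutant lobes and 4.16, 4.17 and 4.88 in Tbx1 mutant lobes. It ran from 3.74 to 8.25, and from 3.74 to 5.11 without Foxn1 mutant array 2. The value of 5.11 on wild type array 2 came from Tnnt2: without that gene the mean of Myl7, Myh6 and Nppa was 3.74 there, within the 3.48 to 4.28 of the arrays other than Foxn1 mutant array 2, where it was 8.07. The array with the highest skeletal mean therefore had no atrial signal above the other arrays. The array with the highest atrial mean had a skeletal mean of 6.97, rank 3 of the 9 arrays and just below the 7.03 of Tbx1 mutant array 3.

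**Figure D2:**
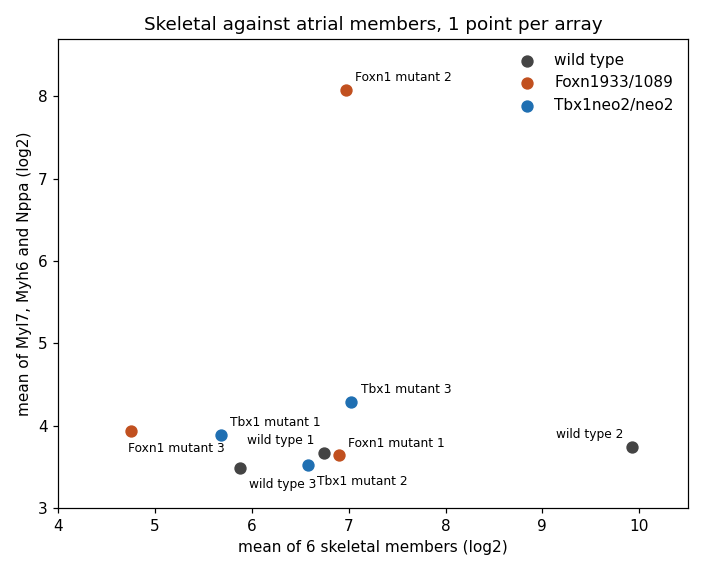
Skeletal against atrial genes. Each point is 1 array, coloured by genotype. The horizontal axis is the mean log2 value of the 6 skeletal genes and the vertical axis that of Myl7, Myh6 and Nppa. Wild type array 2 lies at 9.93 and 3.74, Foxn1 mutant array 2 at 6.97 and 8.07, and the other 7 arrays lie at or below 7.03 and 4.28.

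The 10 genes varied widely between arrays of 1 genotype. The SD within genotypes ran from 0.93 for Chrna1 to 2.80 for Myh3, where the median over all clusters was 0.35, and the 10 genes lay between the 95.1 and 99.8 percentiles of all clusters. Genotype took up 2.59% of the variation of Tnnt2, 7.35% for Myh3, 12.05% for Myh6 and up to 31.8% for Nppa, beside a median of 18.4% over all clusters. Without Foxn1 mutant array 2 the SD of Myl7 fell from 2.16 to 0.99, that of Nppa from 1.44 to 0.16 and that of Myh6 from 0.93 to 0.33, and genotype took up 18.2%, 46.9% and 20.5% of their variation, beside a median of 25.0% over all clusters. Without wild type array 2 the SD of Myh3 was 1.85, that of Acta1 0.65 and that of Chrna1 0.46. Since the genes were chosen for single high arrays, a large spread within a genotype is part of that choice.

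The skeletal genes also moved together on the arrays other than the highest. Over the 9 arrays, the 15 pairs of skeletal genes had a median Pearson correlation of 0.86 (0.71 to 0.98), and without wild type array 2 the median was 0.71 (0.50 to 0.88), while without Foxn1 mutant array 2 it was 0.86 (0.77 to 0.98). Foxn1 mutant array 3 gave the lowest value for 5 of the 6, beside 10.6% of all clusters. The 3 pairs among Myl7, Myh6 and Nppa had a median correlation of 0.91, and without Foxn1 mutant array 2 it was -0.59 (-0.67 to 0.22), at values mostly under background. Tnnt2 correlated with the skeletal mean at 0.84, at 0.75 without wild type array 2 and at 0.95 without Foxn1 mutant array 2. With the mean of the other atrial genes it correlated at 0.53, at 0.80 without wild type array 2 and at 0.09 without Foxn1 mutant array 2. Without both arrays Tnnt2 correlated at 0.84 with the skeletal mean and at 0.23 with the mean of the other atrial genes. It was thus closer to the skeletal mean except when wild type array 2 alone was left out. Those 2 means correlated at 0.06, at 0.32 without wild type array 2 and at -0.06 without Foxn1 mutant array 2. The points share their arrays and normalization, and the correlations are descriptions.

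Among 10880 other clusters that exceeded background by more than 1 on at least 1 array, those closest to the skeletal mean over the 9 arrays were Atp2a1, the calcium pump of fast muscle (r = 0.990), Neb, which encodes nebulin of the thin filament (0.986), Fgfr4, a growth factor receptor of myoblasts among other cells (0.982), Mybph, a myosin-binding protein (0.975), and Mymk, the fusion protein myomaker (0.971). Without wild type array 2 these correlations were still 0.91 to 0.98. The 5 closest to the atrial mean were Cacna1h, a T-type calcium channel gene (0.942), Copa, a coat protein gene of the secretory pathway (0.938), Spin4 (0.929), Dmpk, a kinase of heart and skeletal muscle (0.928), and Epm2aip1 (0.927). All 5 were highest on Foxn1 mutant array 2, and without it the correlations with the atrial mean were 0.42 for Cacna1h, 0.54 for Epm2aip1, 0.65 for Spin4, 0.75 for Copa and 0.85 for Dmpk. This mean includes Tnnt2, and on the arrays left it was highest on wild type array 2, through that gene. Dmpk was also highest there among the arrays left, at 11.34.

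Other muscle genes were read from lists drawn up from textbook roles, with earlier results of these data known. Of the 48 measured genes on 3 further skeletal lists, 39 (81.2%) had their highest value on wild type array 2, beside 10.7% of all clusters, and 2 (4.17%) had it on Foxn1 mutant array 2, beside 14.2% of all clusters. The median gene of the 48 stood 1.46 above its own median on wild type array 2 and 0.13 above it on Foxn1 mutant array 2, and 9 of the 48 were under background on all arrays. Of these 9, Myf5, Cdh15, Myh2, Mybpc2 and Cacng1 are counted among the 39, although their order is not readable.

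Among the other myogenic regulators and fusion genes, 4 of 11 reached more than 1 above background on any array: Mymk, Mymx, Mef2c and Six4. Six4 stood at 8.32 to 9.29 over the 9 arrays and was highest on Foxn1 mutant array 2. Mymk stood at 7.03, 11.80 and 6.50 in wild type lobes, 7.70, 7.80 and 4.72 in Foxn1 mutant lobes and 6.69, 8.41 and 8.17 in Tbx1 mutant lobes, with the same highest and lowest array as Myog. Mymx, the partner of myomaker in fusion, reached 5.76 on wild type array 2 and 3.85 to 4.62 elsewhere. Mef2c, a cofactor of myogenic and cardiac factors that other cells also express, was 12.32 on wild type array 2 and 9.89 to 11.15 elsewhere, and Msc, a repressor of the myogenic factors, was 4.92 there and 2.84 to 4.63 elsewhere. Myod1, Myf5, Myf6 and Pax7, which act before or beside Myog, stayed under background on all 9 arrays, also on wild type array 2.

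Of the other contractile genes, 19 of 21 were highest on wild type array 2 and 11 of 21 lowest on Foxn1 mutant array 3. Of the 48 genes of the 3 lists, 17 were lowest on Foxn1 mutant array 3, beside 10.6% of all clusters. Myl1, an essential light chain of fast myosin, was 11.74 on wild type array 2 and 4.72 to 8.65 elsewhere. Myh8, the perinatal myosin heavy chain, was 10.99 and 4.09 to 7.04, Neb 11.44 and 5.63 to 8.43, and Mybph 9.002 and 4.22 to 6.27. Of the 16 genes of the endplate, calcium handling and energy supply, 14 were highest on wild type array 2. Atp2a1 was 12.17 there and 4.43 to 8.35 elsewhere, and Musk, the receptor kinase that organises the endplate, 7.46 and 4.13 to 5.32. Casq1, the calcium-binding protein of the muscle's internal store, was 6.26 and 3.41 to 5.63, and Pgam2, a glycolytic enzyme, 9.26 and 5.02 to 8.41. Ckm, the creatine kinase of mature muscle, was under background on all 9 arrays.

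Most of the genes that heart and embryonic skeletal muscle share were, like Tnnt2, highest on the same 2 arrays. Of 12, 11 were highest on wild type array 2 and 1, Hspb7, on Foxn1 mutant array 2, where it was under background at 4.62. The median gene of the 12 stood 2.75 and 1.32 above its own median on these 2 arrays. Csrp3, a Z-disc protein, was 7.80 on wild type array 2, 7.64 on Foxn1 mutant array 2 and 3.40 to 5.07 on the other 7. Actn2, the sarcomeric alpha-actinin, was 11.59, 8.52 and 5.49 to 8.02. Tnnc1, the troponin C of heart and slow muscle, was 11.50, 9.42 and 6.06 to 8.52, and Actc1, cardiac actin, was 9.83, 8.13 and 5.38 to 7.41.

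Of the 11 further contractile, calcium and hormone genes of the heart, 3 reached more than 1 above background on any array and 6 were under it on all. Together with 10 regulators they make 21 heart genes, of which 5 (23.8%) were highest on Foxn1 mutant array 2, beside the 14.2% of all clusters, and 1 (4.76%) on wild type array 2. Nppb is counted among the 5, although it was under background on all arrays. The median gene of the 21 stood 0.38 above its own median on Foxn1 mutant array 2 and at -0.05 from it on wild type array 2. Gja5, a connexin of atrium, conduction system and arteries, was 8.52 on Foxn1 mutant array 2, but 8.33 on Tbx1 mutant array 1. Sln, the calcium pump inhibitor of atrium and some skeletal muscle, was 7.62 on wild type array 2, 6.70 on Foxn1 mutant array 2 and 4.28 to 6.66 elsewhere. Ryr2, the calcium release channel of the heart and of neurons, was highest on wild type array 1 at 5.44, and Trdn, triadin of the calcium store, on Foxn1 mutant array 1 at 6.44. Nkx2-5, the cardiac transcription factor, lay under background on all 9 arrays (2.54 to 2.97), as did the regulator Myocd. The 6 genes of the 11 that were under background on all arrays were Myl2, Pln, Nppb, Mybpc3, Hcn4 and Kcne1. Tnni3, the cardiac troponin I, was instead above background on 3 arrays, by less than 1. It was highest on Foxn1 mutant array 2, at 5.09 against 3.66 to 4.71 elsewhere.

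Of the 10 heart regulators, which other tissues also use, 2 were highest on Foxn1 mutant array 2, beside 14.2% of all clusters. They were Gata6, at 5.88 against 3.91 to 5.32 elsewhere, and Mef2a, at 12.80 against 12.12 to 12.60. The list mean was 6.01 on that array and highest on wild type array 1, at 6.50. Isl1, which marks second heart field cells and also neurons, was 12.72 on wild type array 1 and 8.48 to 9.16 elsewhere. Tbx20 was 6.69 on the same array and 5.54 on Foxn1 mutant array 2, and Hand1 was above background on wild type array 1 alone, at 5.86. Gata4 was highest on Tbx1 mutant array 3 at 8.21, where the mesothelial gene Wt1 was also highest at 7.63.

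**Figure D3:**
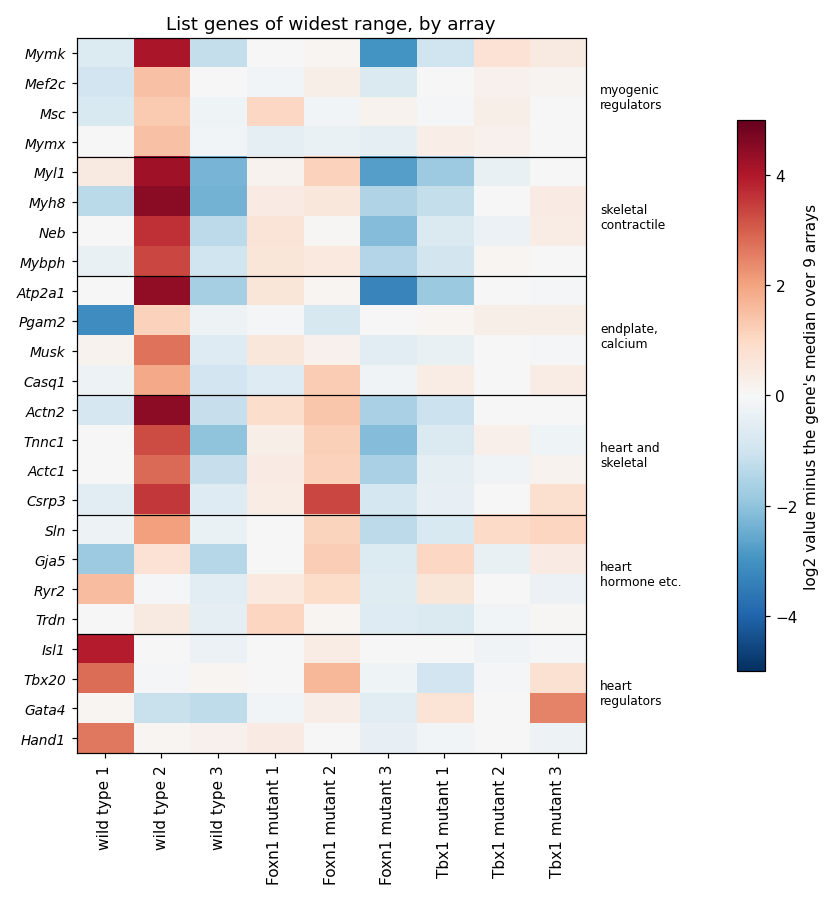
Other genes of the muscle and heart lists. Rows are the named genes of 6 lists and columns the 9 arrays. Colour gives the log2 value minus the gene's median over the 9 arrays. The skeletal and shared genes are deepest red on wild type array 2, the shared genes next on Foxn1 mutant array 2, and the heart regulators on other arrays.

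Markers of other tissues moved with the 2 arrays in part. On Foxn1 mutant array 2 all 6 measured matrix genes of mesenchyme had their highest value, beside 14.2% of all clusters. Their list mean was 13.97 there against 11.83 to 13.43 elsewhere. The endothelial mean was highest there too, at 8.38 against 7.35 to 8.31. Of 7 cartilage genes 4 were highest on this array, but only 2 of the 7 exceeded background by more than 1 on any array. Sox9, which other tissues also express, was among the 4, at 9.37 against 6.35 to 7.27. The cartilage collagen gene Col2a1 was under background there at 4.30. The epicardial and mesothelial mean of Foxn1 mutant array 2, 7.76, was close to the 7.92 of Tbx1 mutant array 3, where Myl7 was the next highest. Their part in the atrial signal was not tested. On wild type array 2 the thymic epithelial mean was 11.05 and the leukocyte mean 9.52, both the highest of the 9 arrays, and the epicardial (4.91), matrix (11.83) and endothelial (7.35) means were the lowest. Smooth muscle genes were highest on Tbx1 mutant array 1, with a list mean of 7.89 against 7.19 on Foxn1 mutant array 2, 5.98 on wild type array 2 and 5.13 to 6.11 elsewhere. Acta2, smooth muscle actin, which embryonic skeletal and heart muscle also express, was 12.67, 11.39 and 12.05 on these arrays and 6.89 to 9.63 on the other 6, and Myh11, the smooth muscle myosin, was under background on all 9.

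**Figure D4:**
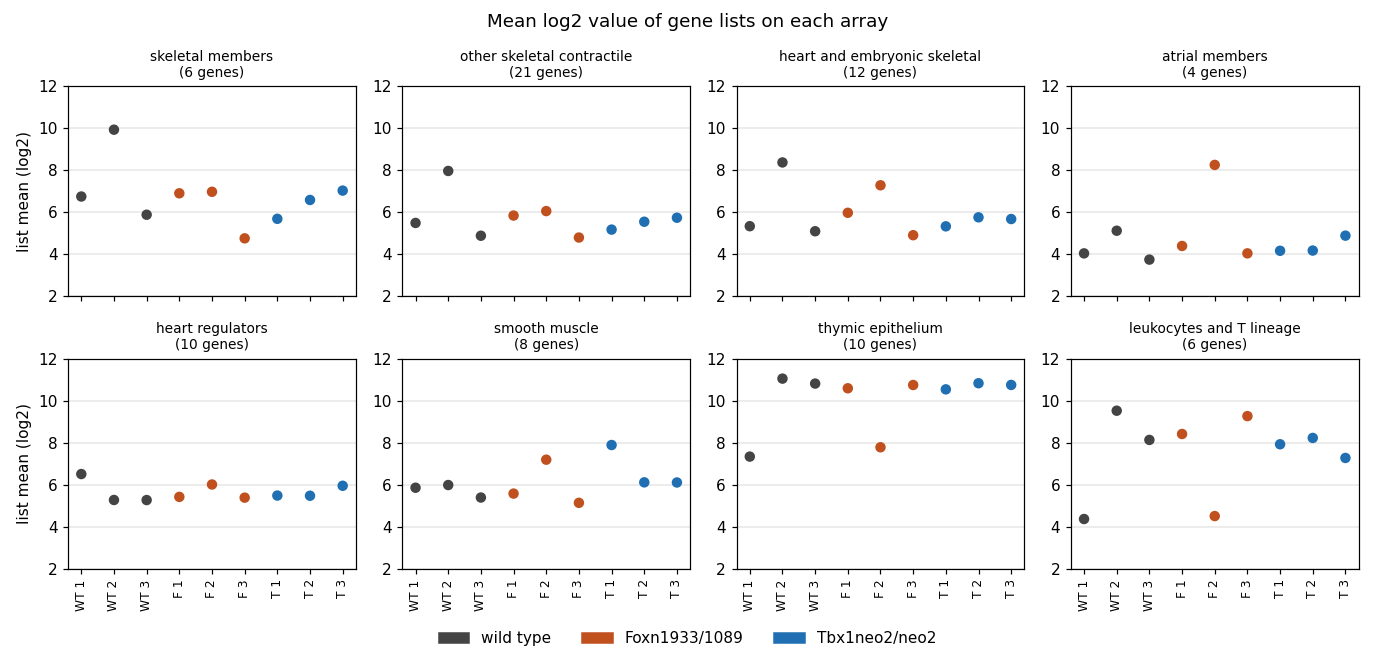
Mean log2 value of gene lists on each array. Each panel is 1 list, each point 1 array, coloured by genotype (WT, wild type; F, Foxn1 mutant; T, Tbx1 mutant). The skeletal, contractile and shared lists peak on wild type array 2 and the atrial genes on Foxn1 mutant array 2, while the thymic epithelium and leukocyte lists are low on wild type array 1 and Foxn1 mutant array 2.

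Between genotypes, the differences moved with single arrays. The skeletal mean was 7.52 ± 2.13 in wild type, 6.21 ± 1.26 in the Foxn1 mutants and 6.43 ± 0.68 in the Tbx1 mutants (SD, n = 3 each). Foxn1 mutants thus differed from wild type by -1.31 and by -0.10 without wild type array 2, and Tbx1 mutants by -1.09 and by 0.12 without that array. Without the 2 arrays low in Prss16 these differences were -2.08 and -1.47. The atrial mean was 4.297 ± 0.72 in wild type, 5.56 ± 2.34 in the Foxn1 mutants and 4.40 ± 0.41 in the Tbx1 mutants (SD, n = 3 each). For the Foxn1 mutants this put the difference from wild type at 1.26, at -0.08 without Foxn1 mutant array 2, and at -0.21 without both arrays low in Prss16. Against the Tbx1 mutants it was 1.15, and -0.19 without Foxn1 mutant array 2. The difference of Tbx1 mutants from wild type was 0.11 in the atrial mean, and that between the 2 mutants was -0.22 in the skeletal mean. These differences were smaller than the spread within at least 1 of the groups compared.

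All 6 skeletal genes had lower means in the Foxn1 mutants than in wild type, with a median difference of -1.26 beside 0.02 over all clusters, and all 6 were lower in the Tbx1 mutants, with a median of -1.30 beside 0.01. Both comparisons use the same wild type arrays, wild type array 2 among them. Without that array Myh3 was 0.86 higher in the Foxn1 mutants, where it had been at -1.37. All 4 atrial genes had higher means in the Foxn1 mutants than in wild type, with a median of 1.14, and Myl7 went from 2.49 to 0.53 without Foxn1 mutant array 2. The difference of Tnnt2 was 0.27 with all arrays, 1.74 without wild type array 2 and -0.83 without Foxn1 mutant array 2.

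The limma fit over all 22206 clusters, with Benjamini-Hochberg adjustment, called 0 of the 10 genes at an adjusted p under 0.05 in each comparison. The share of all clusters called was 0% between Foxn1 mutants and wild type, 0.0135% between Tbx1 mutants and wild type and 0% between the 2 mutants. The 3 clusters called were Chga, Pth and Cldn7, genes of endocrine and epithelial cells that were lower in the Tbx1 mutants. At an unadjusted p under 0.05 the 10 genes again gave 0 in each comparison, beside 4.04%, 3.79% and 2.98% of all clusters. Groups did not overlap for 8.29% of clusters between Foxn1 mutants and wild type, for 9.45% between Tbx1 mutants and wild type and for 8.92% between the 2 mutants. Of the 10 genes this held for Nppa between Foxn1 mutants and wild type, where 5 of the 6 values were under background. The choice of the genes used these values, so nothing is read from the counts.

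Of the 81 other muscle and heart genes, 0 passed the adjusted threshold of the limma fit in any of the 3 comparisons, and 3, 3 and 0 had an unadjusted p under 0.05, shares no higher than the 4.04%, 3.79% and 2.98% of all clusters. Between Foxn1 mutants and wild type these were Mymx, Chrnb1 (the beta subunit of the muscle acetylcholine receptor) and Gata6, at -0.85, -1.37 and 1.07. In these 2 groups Mymx was above background on wild type array 2 alone. Gata6 was under background on wild type arrays 1 and 2, at 4.10 and 3.91. Between Tbx1 mutants and wild type they were Chrnb1, Gata4 and Gata6, at -1.23, 1.81 and 0.79. The median difference of the 81 was -0.23 and -0.32 in these comparisons and 0.07 between the 2 mutants.

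The sample titles carry 3 codes, called A, B and C here, whose meaning the labels do not give. Code A holds wild type array 3, Foxn1 mutant array 2 and Tbx1 mutant array 1, code B wild type array 2 and Foxn1 mutant arrays 1 and 3, and code C wild type array 1 and Tbx1 mutant arrays 2 and 3. Within code A the skeletal mean of the Foxn1 mutant was 1.09 above wild type, and within code B the Foxn1 mutants were at -4.10 from the single wild type array. For the atrial mean the difference was 4.51 in code A and -0.90 in code B. For the Tbx1 mutants against wild type the skeletal mean differed by -0.19 within code A and 0.06 within code C, and the atrial mean by 0.42 and 0.49. Code A alone holds both mutants, and there the Foxn1 mutant array stood 1.29 above the Tbx1 mutant array in the skeletal mean and 4.09 above it in the atrial mean. The high skeletal and the high atrial array carry different codes. Foxn1 mutant array 1, which shares code B with wild type array 2, had a skeletal mean of 6.90 and Foxn1 mutant array 3, also of code B, the lowest of the 9 at 4.75.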

How the data were processed

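The values are log2 intensities of 28846 features on 9 Clariom S arrays, used as deposited by the authors. No source used here names the software, the normalization or the build. Per the labels' protocols, RNA was isolated with a mirVana kit, amplified and labelled with Affymetrix whole-transcript kits. Control features (6640) were left out, which left 22206 transcript clusters, 19572 of them with 1 symbol from the platform annotation and 2634 with none. A gene was read from its cluster of highest mean.

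Genotypes followed the labels. A genotype-only limma model (limma 3.58.1, R 4.3.3) was fitted over all 9 arrays with Benjamini-Hochberg adjustment over all clusters and tested on simulated data. The labels name no separate embryos, so p-values cover the spread between arrays, which may be technical. List means and correlations were computed with pandas 2.3.3 in Python 3.11.15. Background is the median of 5222 negative controls on each array. The members and lists were chosen with earlier results of these data known. Other genes named are the 5 clusters most correlated with each mean, the up to 4 genes of widest range of each muscle list, and a few marker genes. Myod1, Myf5, Myf6, Pax7, Six4, Cdh15, Myh2, Mybpc2, Cacng1, Ckm, Hspb7, Nkx2-5, Myocd, Mef2a, Myl2, Tnni3, Pln, Nppb, Mybpc3, Hcn4, Kcne1, Chrnb1 and Gata6 were named after their values were seen. Alternatives were quantile normalization, median centring, a floor at background, leaving out clusters of low mean, an intensity trend, the title code as a block, all clusters of a symbol, leaving out Des and Tnnt2, only the groups compared, and leaving out arrays. Promoters are RefSeq windows of GRCm38.p6.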

Additional observations from a re-analysis of the deposited data

How the results depend on the processing

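The group differences rest on single arrays. With any 1 array left out, the skeletal difference lay between -2.13 and -0.10 for Foxn1 mutants against wild type and between -1.91 and 0.12 for Tbx1 mutants, and the atrial difference of the Foxn1 mutants from wild type between -0.08 and 2.02. These shifts were under 1 SD between arrays, itself wide; the atrial difference of -0.21 without wild type array 1 and Foxn1 mutant array 2 was a larger shift than that. In all, 14 of 102 mean values and 59 of 450 values of single members changed sign. The number of clusters called, with 0 members in any fit, moved as follows. Between Foxn1 mutants and wild type it was 0, 1 with only the arrays of these groups, 1 without wild type array 2 and Foxn1 mutant array 2 (left out together after the data were seen), and 0 to 3 with any 1 array left out (3 without Tbx1 mutant array 1). Between Tbx1 mutants and wild type it was 3, 1 with the title code as a block, 0 with only these groups, 22 without wild type array 2 and Foxn1 mutant array 2, and 0 to 20 with any 1 array left out (20 without wild type array 2, 5 without Tbx1 mutant array 1, and 0 without wild type array 3 or either other Tbx1 mutant array). Between the mutants it was 0, 2 with a floor at background, 2 without wild type array 1 and Foxn1 mutant array 2, 2 without wild type array 2 and Foxn1 mutant array 2, 2 with only these groups, and 0 to 3 with any 1 array left out (3 without wild type array 1, 2 without wild type array 2). The cause was not tested. The number of arrays limits the precision, and Chrna1, Myh6 and Nppa were above background on 3, 1 and 1 of the 9 arrays, so that their order elsewhere is not readable.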
